A study of Schizosaccharomyces pombe with 130 samples.

Results

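The Ccr4-Not complex of fission yeast (Schizosaccharomyces pombe) is described here through the genes that encode its subunits: not1, not2, not3, mot2, caf1, ccr4 and rcd1. These 7 genes were chosen by name from 5099 protein-coding genes among the 7021 features counted. Ccr4-Not is a conserved complex that shortens the poly(A) tail of messenger RNA, the first step of most cytoplasmic mRNA decay. Not1 is the large scaffold on which the other subunits assemble. Not2 and Not3 form the NOT module with the carboxy-terminal part of Not1, Mot2 (Not4 in budding yeast) is an E3 ubiquitin ligase, Caf1 and Ccr4 are the deadenylases, and Rcd1 (Caf40 in budding yeast) is an armadillo-repeat protein that binds Not1. In fission yeast the complex also takes part in the degradation of heterochromatic transcripts.

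The study compared wild-type cells with mutants in Ccr4-Not, in RNA decay and in heterochromatin, and measured Pol II occupancy (31 Pol II ChIP libraries), nascent RNA (37 Pol II RIP libraries) and steady-state RNA (32 pA RNA and 8 total RNA libraries), with 13 input DNA libraries beside the ChIP. The polymerase was precipitated in both of these assays through its serine 2 phosphorylated form, which marks elongation. Of 130 samples, 121 were used. Strains with an altered Ccr4-Not complex were caf1Δ (strains 510 and 591), ccr4Δ (544), mot2Δ (1022 and 1023), the double mutant caf1Δago1Δ (523 and 524), the strain labelled caf1Δdcr1Δ (521), and caf1*ccr4* (1168), which keeps both deadenylase proteins with changed catalytic residues. The other mutants were rrp6Δ (504), which lacks a nuclear exosome exonuclease; exo2Δ (530), which lacks the cytoplasmic 5′-3′ exonuclease; and the heterochromatin mutants labelled swi6Δ (301), chp2Δ (324), clr3Δ (302), mit1Δ (491), ago1Δ (638) and clr4Δ (80), which lack HP1 proteins, silencing complex subunits, Argonaute or the H3K9 methyltransferase. Wild type was strain 63, with untagged ago1, and strain 65, which carries 3xFLAG-ago1, as do strains 510, 544, 504, 530, 1022 and 1023. Strains 591 and 1168 have another background, with other auxotrophic alleles and reporter genes at a centromere and at telomeres. Strains 491, 301 and 324 carry their reporter at other sites than wild type. Strain 504 (rrp6Δ) has another ade6 allele than wild type and an added his7 allele. Background and mutation cannot be told apart in all of these strains. In caf1*ccr4* a resistance marker stands upstream of the caf1 promoter and another follows the ccr4 terminator, so a changed level of either mRNA cannot be told apart from an effect of the inserted sequences. A subunit gene was left out in a strain that lacks it.

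Libraries held 2816982 to 22001556 counts in pA RNA, 319815 to 5931009 in Pol II RIP, 2458408 to 23442851 in Pol II ChIP and 771907 to 6703260 in total RNA. The deleted subunit was at 0.173% and 0.481% of its median in the other strains in pA RNA of ccr4Δ, and at 2.61% and 3.87% in mot2Δ. In pA RNA of caf1Δ, however, caf1 remained at 17.7% and 53.3%. In Pol II ChIP the deleted gene was not low in every strain (caf1 at 89.2% and 158% in caf1Δ, mot2 at 57.3% and 106% in mot2Δ), and dcr1 was at 55.1% in RIP of the library labelled caf1Δdcr1Δ. The clr4 and swi6 counts do not show those deletions clearly (up to 120% and 60.3% of the other strains in pA RNA), so these strains are called by their labels. Wild-type replicates 1 and 2 of pA RNA differed from replicates 3 and 4: mot2 was 3.45-fold, not2 2.31-fold, not3 2.20-fold, ccr4 1.71-fold and not1 1.63-fold higher in replicates 1 and 2, and 17.4% of 4961 protein-coding genes differed by more than 1 on the log2 scale. Levels are given as TPM (transcript-length normalised counts, scaled to a common total per library), while folds and p-values come from edgeR's quasi-likelihood test on TMM-scaled counts. The median protein-coding gene had a TPM ratio to wild type of 0.31 (log2) in pA RNA of caf1*ccr4*, 0.39 in caf1Δ, 0.26 in mot2Δ and 0.20 in rrp6Δ. In Pol II ChIP of caf1Δago1Δ this ratio was 0.37. TPM ratios lie above the fitted changes in these comparisons, which enlarges an increase and lessens a decrease. The study's methods call the replicates biological without saying what was repeated, so p-values measure the spread between these libraries.

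The codons of the catalytic residues named for the mutant are shown because both coding regions remain in caf1*ccr4*, so that their reads can be compared with wild type. The lines give the RefSeq sequence (ASM294v3, chromosome III, minus strand, 5′ to 3′), with the wild-type codon in capitals: in caf1 the codon changed by D53A (chrIII:1966676-1966702) and in ccr4 the codon changed by H664A (chrIII:637530-637556). Residues are counted from 1 at the start of each protein.
caf1: gttgtttctatgGATacagaatttcca
ccr4: ttccctagtgatCATatttgcttgctg
The reference encodes 335 residues for caf1 and 690 for ccr4, each in 1 coding exon. Other aspartates of caf1 that the strain carries changed are not shown.

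In wild type the subunit genes did not share a common level. In pA RNA they ranged from 54.7 ± 16.7 TPM for not1 to 178 ± 63.1 TPM for rcd1 (SD, n = 4), which places not1 at percentile 42.9 and rcd1 at percentile 79.6 of protein-coding genes. Next to rcd1 came not3 with 128 ± 60.4, caf1 with 113 ± 11.9, not2 with 99.4 ± 46.8, ccr4 with 90.1 ± 31.5 and mot2 with 74.1 ± 47.9 TPM. Neighbours in this order differed by less than the larger of their SDs. In nascent RNA the order was another one: not1 was highest with 534 ± 65.5 TPM, followed by not3 with 350 ± 83.9 and ccr4 with 307 ± 2.14 TPM, and the remaining genes lay between 117 and 147 TPM (n = 2). In Pol II occupancy not3 led with 582 ± 15.8 TPM, above not1 with 321 ± 1.22 and ccr4 with 249 ± 33.7 TPM (n = 2). The 13 input DNA libraries held not1 at 157 to 183 TPM and not3 at 183 to 249 TPM, so the ChIP level of not3 lay above every input.

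Transcription efficiency, the mean TPM of Pol II RIP divided by that of Pol II ChIP, and RNA stability, the mean TPM of pA RNA divided by that of Pol II RIP, put these differences in 1 measure each. The transcript of not1 was at percentile 3.33 of protein-coding genes for stability in wild type, and between 1.73 and 5.23 in the 13 genotypes with both assays. Its transcription efficiency was between percentiles 89.6 and 96.8 in 14 genotypes. At a transcript length of 6610 nucleotides not1 is a long gene, and the 158 genes of at least 5000 nucleotides had a median stability percentile of 6.49 in wild type, so a low ratio is shared by long genes. The 159 long genes with an efficiency value had a median efficiency percentile of 82.1, so a high efficiency is shared by long genes too. For rcd1 the stability percentile was 65.3 to 92.8, for caf1 58.3 to 83.9, and for ccr4 10.6 to 38.5 over the genotypes, as the plot of percentiles shows. Numerator and denominator of the 2 ratios share the RIP libraries, so a high RIP value raises one and lowers the other.

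**Figure D1:**
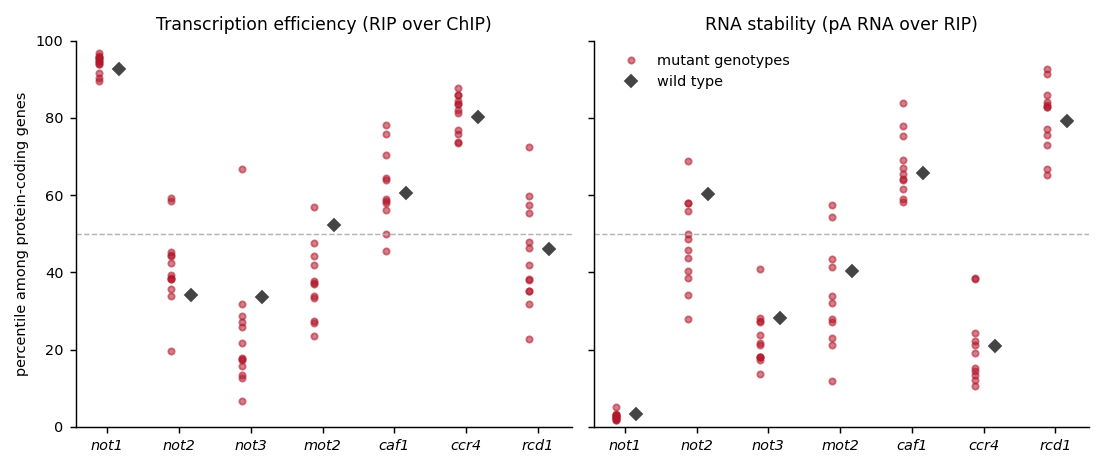
Percentile of each subunit gene among protein-coding genes for transcription efficiency (left) and RNA stability (right). Red points are the mutant genotypes, each from mean TPM over its libraries, the dark diamond is wild type, and the dashed line is the 50th percentile; not1 lies at the top for efficiency and at the bottom for stability in every genotype, and rcd1 lies above the line for stability.

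Across 12 mutant genotypes in pA RNA, 13 of 81 tests of a subunit gene passed an adjusted p of 0.05 over all features (3 higher, 10 lower), 26 had an unadjusted p under 0.05, and DESeq2 called 15. Over the same comparisons 10.6% of all feature tests passed. The split by direction turned with the wild-type libraries: 1 call was higher and 30 lower with replicates 1 and 2 alone, and 10 were higher and 1 lower with replicates 3 and 4 alone. The shares of all features called with each pair alone are not given here. Between the wild-type pairs 47.4% of 4961 protein-coding genes differed by more than 0.5 (log2), so this turn is not read as a trait of the subunit genes. In caf1*ccr4* 2 of 7 genes rose, where 9.3% of 6590 features did, and in caf1Δ 1 of 6 rose, where 6.69% of features did. Decreases were found in rrp6Δ (4 of 7 genes, 16.5% of features), exo2Δ (3 of 7, 9.12%), the strain labelled swi6Δ (2 of 7, 8.22%) and ago1Δ (1 of 7, 3.19%). In ccr4Δ and mot2Δ edgeR called 0 of 6 (0 at an unadjusted p under 0.05, 0 by DESeq2), with 3.72% and 4.96% of features called in either direction. Another 4 strains had 0 of 7 called by edgeR and by DESeq2: the strain labelled clr4Δ (4 with an unadjusted p under 0.05, 1.23% of features called), chp2Δ (2, 0.349%), clr3Δ (0, 1.17%) and mit1Δ (0, 0.288%).

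Fewer tests passed in the other assays. In nascent RNA 5 of 81 did (16 unadjusted, 7 by DESeq2), against 1.98% of all feature tests. They were 3 of 7 genes higher and 1 lower in caf1*ccr4*, where 2.04% of features were higher and 3.12% lower, and 1 of 6 lower in caf1Δago1Δ, where 4.82% of features were. In occupancy 5 of 81 passed (10 unadjusted, 5 by DESeq2), against 4.52% of all feature tests. They were 2 of 7 genes higher in caf1*ccr4*, where 5.79% of features were, and 3 of 6 lower in caf1Δago1Δ, where 20.7% of features were. When each mutant was fitted with wild type alone, without the spread shared over the other genotypes, the only call in pA RNA was caf1 in caf1*ccr4* and RIP had 0 calls.

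**Figure D2:**
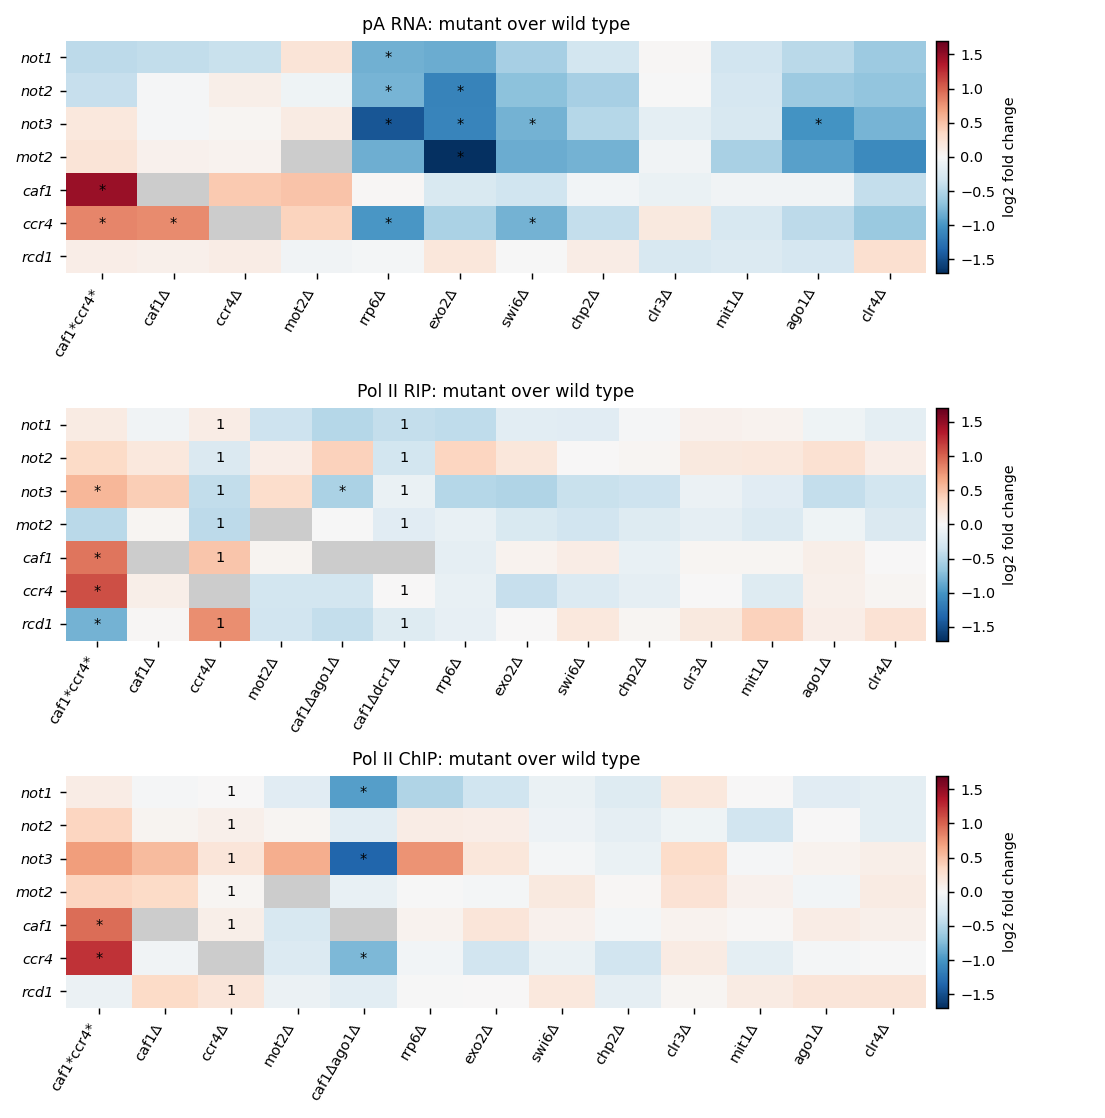
Fitted log2 fold change of each subunit gene (rows) in each mutant over wild type (columns) in pA RNA, in RIP and in ChIP. Red is higher and blue lower than wild type, an asterisk marks an adjusted p under 0.05, grey marks a gene the strain lacks, and a 1 marks a genotype with 1 library and no test; caf1 and ccr4 are red in caf1*ccr4* in all 3 assays, and the NOT genes are blue in pA RNA of rrp6Δ and exo2Δ.

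not1 (SPAC20G8.06, chromosome I, 1403161 to 1409763) encodes the scaffold. In pA RNA it had 38.7 and 39.1 TPM in rrp6Δ cells, against 70.0, 65.7, 49.9 and 33.4 TPM in wild type (replicates 1 to 4). Both rrp6Δ libraries lay between the lowest wild-type library and the others, so the groups overlapped. The gene fell by 0.82 on the log2 scale (SE 0.31, edgeR adjusted p = 0.0409). This call was lost without either rrp6Δ library or without wild-type replicate 1 or 2 (edgeR adjusted p = 0.0654 to 0.159), and with upper-quartile scaling. In exo2Δ cells not1 had 32.8 and 29.6 TPM, under every wild-type library, but the change of -0.84 (SE 0.31) did not pass (edgeR adjusted p = 0.0526). The highest pA RNA level, 88.9 and 64.7 TPM, was in mot2Δ cells. Nascent not1 RNA ranged from a mean of 394 TPM in caf1Δago1Δ to 660 TPM in caf1*ccr4*, with 488 and 580 TPM in wild type, and was called in 0 of 12 genotypes by edgeR (2 at an unadjusted p under 0.05, 1 by DESeq2). Pol II occupancy of not1 was 220 and 222 TPM in caf1Δago1Δ cells, against 322 and 320 TPM in wild type, and fell by 0.94 (SE 0.26, edgeR adjusted p = 0.00915). Without either caf1Δago1Δ library the change kept its size and its edgeR adjusted p was 0.052 or 0.0702.

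not2 (SPCC4G3.15c, chromosome III, 441536 to 442914) and not3 (SPAC1B3.05, chromosome I, 4934571 to 4937012) encode the subunits of the NOT module. In pA RNA not2 had 47.6 and 44.9 TPM in exo2Δ cells, against 151, 127, 65.0 and 55.1 TPM in wild type, and the groups did not overlap. It fell by 1.13 (SE 0.30, edgeR adjusted p = 0.0113). In rrp6Δ cells not2 had 71.7 and 72.4 TPM, within the wild-type range, and fell by 0.79 (SE 0.30, edgeR adjusted p = 0.0427). These decreases rest on wild-type replicates 1 and 2: with replicates 3 and 4 alone as wild type, not2 changed by -0.45 in exo2Δ (edgeR adjusted p = 0.263) and by -0.11 in rrp6Δ (edgeR adjusted p = 0.78). Leaving out either mutant library also ended both calls, and leaving out wild-type replicate 1 or 2 ended that in rrp6Δ (edgeR adjusted p = 0.0784 to 0.159 over these fits). Nascent not2 RNA lay between 109 TPM in the single ccr4Δ library and a mean of 167 TPM in caf1*ccr4*, against 119 TPM in both wild-type libraries, and 0 of 12 genotypes were called by edgeR in RIP and 0 of 12 in ChIP (1 each at an unadjusted p under 0.05, 0 by DESeq2).

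In pA RNA not3 had 57.3 and 60.5 TPM in rrp6Δ cells, against 205, 146, 86.0 and 74.0 TPM in wild type. Both rrp6Δ libraries lay under every wild-type library. The gene fell by 1.45 (SE 0.33, edgeR adjusted p = 0.00194), and the call was lost only when rrp6Δ and wild type were fitted without the other genotypes (edgeR adjusted p = 0.0566). In exo2Δ cells not3 had 62.4 and 57.9 TPM, also under every wild-type library, and fell by 1.12 (SE 0.33, edgeR adjusted p = 0.0188). In ago1Δ cells it had 55.9, 70.6 and 76.7 TPM, and in cells labelled swi6Δ 76.2, 71.9 and 67.3 TPM, where the highest library of each overlapped the lowest of wild type. It fell by 1.02 in ago1Δ (SE 0.28, edgeR adjusted p = 0.0284) and by 0.81 in swi6Δ (SE 0.28, edgeR adjusted p = 0.049). The calls in exo2Δ, ago1Δ and swi6Δ were each lost without wild-type replicate 1 (edgeR adjusted p = 0.063, 0.142 and 0.23) and without some of the mutant libraries (both of exo2Δ, all 3 of ago1Δ, and replicates 2 and 3 of swi6Δ), and that in swi6Δ also without wild-type replicate 2. Without wild-type replicate 1 the change in swi6Δ was -0.47. With wild-type replicates 3 and 4 alone the changes were -0.49 in exo2Δ, -0.39 in ago1Δ and -0.15 in swi6Δ (edgeR adjusted p = 0.31, 0.479 and 0.771).

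Pol II occupancy at not3 did not fall beside its pA RNA in rrp6Δ. It was 1015 and 978 TPM in rrp6Δ cells (383 TPM in the library left out of the fit), against 571 and 593 TPM in wild type, and the groups did not overlap, but the change of 0.76 (SE 0.35) did not pass (edgeR adjusted p = 0.266). Nascent not3 RNA was 254 and 277 TPM in rrp6Δ cells, against 409 and 291 TPM in wild type, a change of -0.48 (SE 0.16, edgeR adjusted p = 0.113). The transcription efficiency of not3 was at percentile 6.62 in rrp6Δ, against 33.6 in wild type, and its change of -1.24 (SE 0.36) had an unadjusted p of 0.0012 and an edgeR adjusted p of 0.116. An annotated small nucleolar RNA, snR90, lies on the opposite strand over 106 bases of not3. Its own pA RNA count rose in rrp6Δ by 3.24 (edgeR adjusted p = 0.0016). RNA was counted by strand and ChIP was not, and the part of snR90 in the ChIP value of not3 was not tested.

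Nascent not3 RNA was 601 and 559 TPM in caf1*ccr4* cells, against 409 and 291 TPM in wild type. Both caf1*ccr4* libraries exceeded wild type, and the gene rose by 0.57 (SE 0.16, edgeR adjusted p = 0.035). Without caf1*ccr4* replicate 1 or wild-type replicate 2 it was 0.50 and 0.42 (edgeR adjusted p = 0.272 and 0.368). In caf1Δ RIP it was 525 and 498 TPM, a change of 0.41 (SE 0.16, edgeR adjusted p = 0.366). Over the 12 tested genotypes nascent not3 RNA had an unadjusted p under 0.05 in 10, of which edgeR called 2 after adjustment and DESeq2 3, with fitted changes above 0 in caf1*ccr4*, caf1Δ and mot2Δ and below 0 in the rest. All of these share the same pair of wild-type libraries, which differed from each other (409 and 291 TPM). ChIP values of not3 were also above wild type in caf1*ccr4* (933 and 837 TPM), caf1Δ (926 and 705 TPM) and mot2Δ (893 and 790 TPM), and none of these passed (edgeR adjusted p = 0.197 to 0.747).

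In caf1Δago1Δ cells not3 was low in both assays: 225, 247 and 270 TPM in RIP, against 409 and 291 TPM in wild type, and 320 and 282 TPM in ChIP, against 571 and 593 TPM in wild type. Neither pair of groups overlapped. It fell by 0.54 in RIP (SE 0.15, edgeR adjusted p = 0.0191) and by 1.35 in ChIP (SE 0.35, edgeR adjusted p = 0.00708). The RIP call was lost without wild-type replicate 1 (-0.34, edgeR adjusted p = 0.314) and without replicate 1 of either caf1Δago1Δ strain, and the ChIP call without the library of strain 524 (-1.25, edgeR adjusted p = 0.0725).

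The ChIP libraries of caf1Δago1Δ resembled input DNA more than the others did. Their Spearman correlations with the median input were 0.338 and 0.316, against 0.0168 and 0.0686 in wild type, and of the other ChIP libraries only replicate 3 of chp2Δ and the left-out replicate 3 of mit1Δ and of rrp6Δ exceeded 0.138. Fitted changes in caf1Δago1Δ ChIP were below 0 for all 6 subunit genes measured, and not1, not3 and ccr4 were called. Relative to median input, not3 was 1.46 and 1.29 in caf1Δago1Δ, against at least 2.60 in both wild-type libraries. For not1 the values were 1.29 and 1.30, against 1.88 and 1.88. Upper-quartile scaling moved the median fitted change of protein-coding genes in caf1Δago1Δ ChIP from -0.03 to 0.19, so the size of these decreases depends on the scaling. The part of this likeness to input in the decreases of not1, not3 and ccr4 in caf1Δago1Δ ChIP was not tested.

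**Figure D3:**
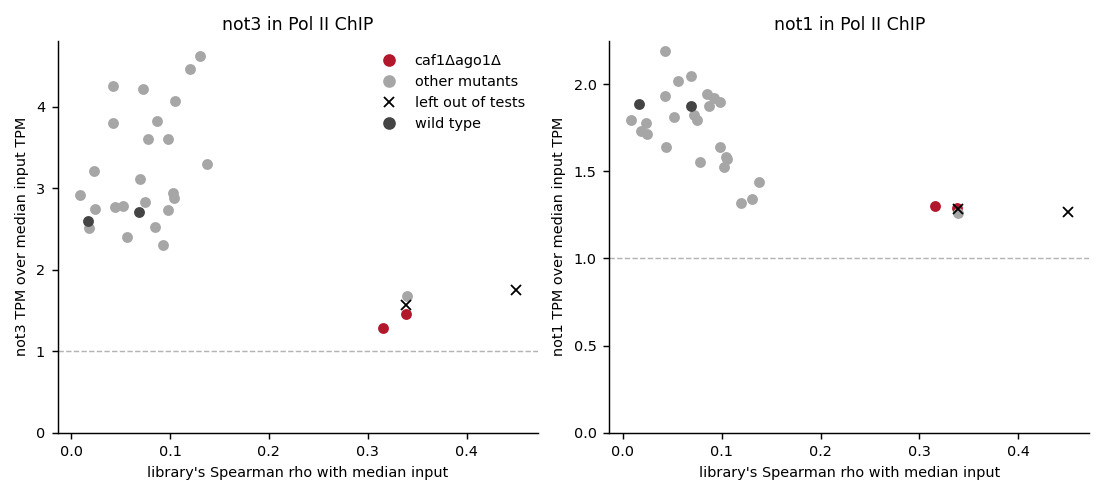
Pol II ChIP of not3 (left) and not1 (right) in each library, as TPM over the median input TPM (1 marks input level), against the library's Spearman correlation with median input. Red points are caf1Δago1Δ, grey points the other mutants, crosses the 2 libraries left out of tests and dark points wild type; the 2 caf1Δago1Δ libraries lie at the right and low, near chp2Δ replicate 3 and the left-out libraries.

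mot2 (SPAC16C9.04c, chromosome I, 796876 to 798802), the gene of the ubiquitin ligase, had 26.9 and 19.7 TPM in pA RNA of exo2Δ cells, against 125, 105, 34.6 and 31.9 TPM in wild type. Both exo2Δ libraries lay under every wild-type library. The gene fell by 1.69 (SE 0.45, edgeR adjusted p = 0.0102), the largest fitted change of any subunit gene in pA RNA. With wild-type replicates 3 and 4 alone the change was -0.59 (edgeR adjusted p = 0.295), and without either exo2Δ library the edgeR adjusted p was 0.0544 or 0.164. In caf1*ccr4*, caf1Δ and ccr4Δ cells mot2 had 90.3 and 117, 57.7 and 147, and 80.7 and 84.6 TPM, all inside the wild-type range apart from the highest caf1Δ library. Nascent RNA of mot2 was 75.4 and 163 TPM in caf1*ccr4*, against 157 and 137 TPM in wild type, and edgeR called mot2 in 0 of 11 genotypes in RIP and 0 of 11 in ChIP (0 at an unadjusted p under 0.05, 0 by DESeq2).

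caf1 (SPCC18.06c, chromosome III, 1965430 to 1966906) encodes the deadenylase of the RNase D type. In pA RNA it had 361 and 402 TPM in caf1*ccr4* cells, against 111, 109, 130 and 102 TPM in wild type. Both mutant libraries lay far above all wild-type libraries, which were close to each other. The gene rose by 1.47 (SE 0.27, edgeR adjusted p = 0.000918) and was called in all 14 alternatives run on it. In ccr4Δ, which lacks the other deadenylase, caf1 had 164 and 172 TPM, and in mot2Δ 252 and 139 TPM, above every wild-type library in both strains. The fitted changes of 0.45 in ccr4Δ (SE 0.28) and 0.49 in mot2Δ (SE 0.28) did not pass (edgeR adjusted p = 0.424 and 0.366). In the remaining strains mean levels lay between 89.3 TPM in swi6Δ and 145 TPM in rrp6Δ.

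The increase of caf1 in caf1*ccr4* was also present in nascent RNA and occupancy. Pol II RIP gave 262 and 233 TPM in caf1*ccr4* cells, against 129 and 106 TPM in wild type, and Pol II ChIP 235 and 230 TPM in caf1*ccr4* cells, against 144 and 115 TPM in wild type. The groups did not overlap in either assay. The gene rose by 0.91 in RIP (SE 0.22, edgeR adjusted p = 0.0148) and by 0.95 in ChIP (SE 0.24, edgeR adjusted p = 0.0225). The call was lost without caf1*ccr4* replicate 1 or without either wild-type library, both in RIP (0.81 to 0.99; edgeR adjusted p = 0.0506 to 0.153) and in ChIP (0.74 to 1.10; edgeR adjusted p = 0.0871 to 0.154). Input DNA held caf1 at 176 TPM in caf1*ccr4* and 172 TPM in wild type.

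The gene upstream of caf1, ost5 (SPCC18.19c), overlaps it by 52 bases on the same strand and rose in caf1*ccr4* as well. It had 21 and 31 counts in RIP of caf1*ccr4*, against 0 and 1 in wild type, and 27 and 103 counts in pA RNA (47.8 and 36.3 TPM), against 16, 50, 20 and 31 counts in wild type (4.34 to 14.7 TPM). Its fitted change in pA RNA was 2.00 (edgeR adjusted p = 0.00632). In pA RNA and RIP the rise of ost5 was not particular to this strain. In pA RNA it also rose in rrp6Δ (1.80, edgeR adjusted p = 0.00489), and no other mutant was called. In RIP it rose by 6.26 in caf1*ccr4* (edgeR adjusted p = 0.00437) and was also called in caf1Δago1Δ (4.07, edgeR adjusted p = 0.0441). Its RIP change was above 0 in every mutant but ccr4Δ, over wild-type counts near the floor. In Pol II ChIP, among the tested mutants, ost5 was called in caf1*ccr4* alone (3.53, edgeR adjusted p = 0.00954). It had 131 and 305 ChIP counts there, against 2 and 42 in wild type. The part of the inserted marker, or of reads shared with ost5, in the level of caf1 was not tested.

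**Figure D4:**
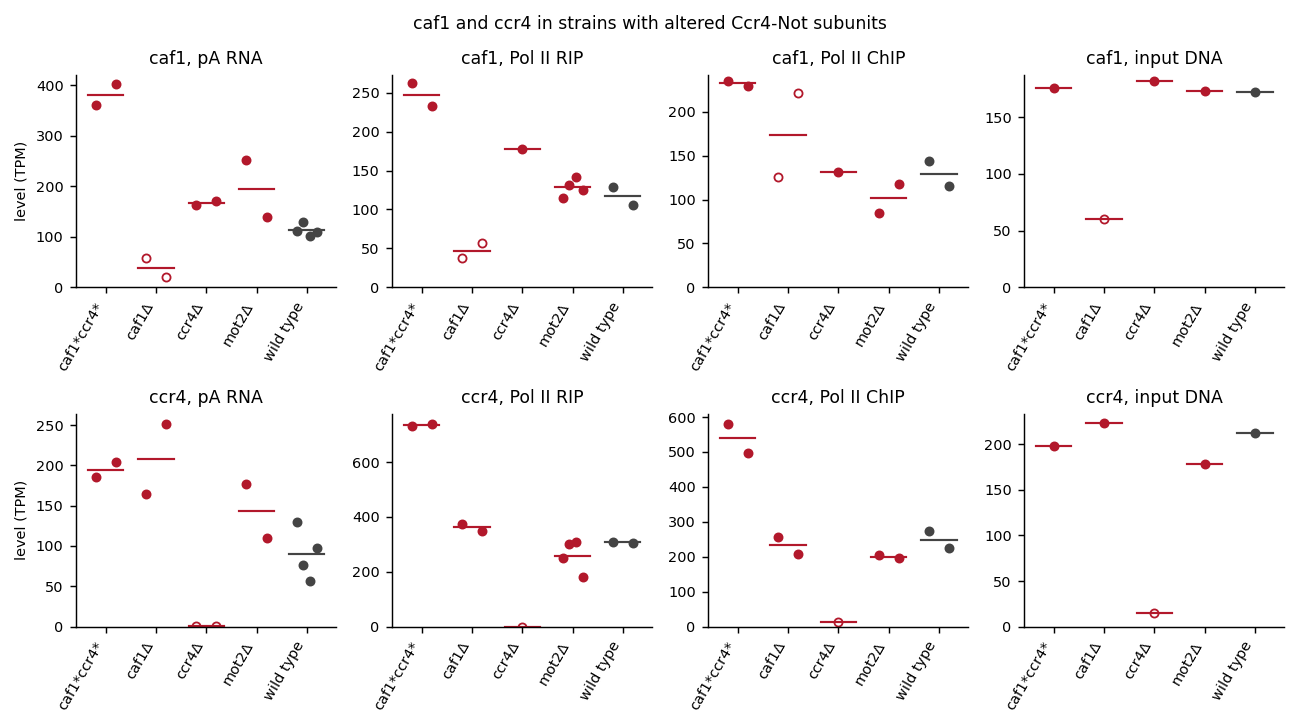
Levels of caf1 (top) and ccr4 (bottom) in TPM in pA RNA, Pol II RIP, Pol II ChIP and input DNA, for the Ccr4-Not mutants (red) and wild type (dark). Points are libraries, bars are means and open points mark a gene the strain lacks; both genes stand above wild type in caf1*ccr4* in the first 3 assays (caf1 at 361 and 402 TPM in pA RNA), and the input levels do not.

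ccr4 (SPCC31H12.08c, chromosome III, 637435 to 639623) encodes the deadenylase of the exonuclease-endonuclease-phosphatase type. Its nascent RNA was 733 and 739 TPM in caf1*ccr4* cells, against 309 and 306 TPM in wild type, and its occupancy was 581 and 497 TPM in caf1*ccr4* cells, against 273 and 225 TPM in wild type. In both assays the groups stood far apart. It rose by 1.09 in RIP (SE 0.19, edgeR adjusted p = 0.00127) and by 1.22 in ChIP (SE 0.14, edgeR adjusted p = 0.000143), and the ChIP call was kept in all 11 alternatives run. Input DNA held ccr4 at 198 TPM in caf1*ccr4* and 212 TPM in wild type.

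In pA RNA ccr4 had 185 and 205 TPM in caf1*ccr4* cells and 165 and 251 TPM in caf1Δ cells, against 130, 97.4, 76.7 and 56.2 TPM in wild type. The libraries of both mutants lay above every wild-type library. The gene rose by 0.83 in caf1*ccr4* (SE 0.24, edgeR adjusted p = 0.021) and by 0.81 in caf1Δ (SE 0.24, edgeR adjusted p = 0.0278). With wild-type replicates 1 and 2 alone neither passed (0.52 and 0.50; edgeR adjusted p = 0.134 and 0.179). The call was lost in caf1*ccr4* without either mutant library (edgeR adjusted p = 0.0862 and 0.22), and in caf1Δ without its replicate 2 or wild-type replicate 3 or 4 (edgeR adjusted p = 0.277, 0.0634 and 0.0683). In caf1Δ, whose ccr4 gene was not altered, nascent ccr4 RNA was 375 and 349 TPM, a change of 0.09 (SE 0.19, edgeR adjusted p = 0.938), and ccr4 occupancy was 208 and 257 TPM, a change of -0.05 (SE 0.14, edgeR adjusted p = 0.953). The change of ccr4 RNA stability in caf1Δ was 0.87 (SE 0.34, edgeR unadjusted p = 0.0135, edgeR adjusted p = 0.279). In mot2Δ it was 0.79 (SE 0.31, edgeR unadjusted p = 0.015, edgeR adjusted p = 0.291). The pA RNA of caf1Δ came from strain 510 alone, and its RIP and ChIP from strains 510 and 591. The pA RNA of mot2Δ came from strains 1022 and 1023, and its RIP from 1022 alone. Strain thus differs with assay in both mutants.

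The pA RNA of ccr4 was lower in 2 strains outside the complex. It had 55.4 and 58.6 TPM in rrp6Δ cells and 40.6, 56.4 and 57.5 TPM in cells labelled swi6Δ, where the highest libraries lay just above the lowest wild-type library. It fell by 0.99 in rrp6Δ (SE 0.26, edgeR adjusted p = 0.00496) and by 0.81 in swi6Δ (SE 0.22, edgeR adjusted p = 0.0222). With wild-type replicates 3 and 4 alone the changes were -0.59 and -0.39 (edgeR adjusted p = 0.0768 and 0.302), and the swi6Δ call was also lost without its replicate 1 or 2 or wild-type replicate 1 (edgeR adjusted p = 0.0511 to 0.0907). In caf1Δago1Δ cells ccr4 occupancy was 204 and 185 TPM, against 273 and 225 TPM in wild type, and fell by 0.76 (SE 0.14, edgeR adjusted p = 0.00168), in the libraries near input described above.

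rcd1 (SPAC29B12.06c, chromosome I, 5417366 to 5419173) had the smallest ratio of highest to lowest genotype mean in pA RNA among the subunit genes, with 145 TPM in clr3Δ and 247 TPM in caf1Δ, with 152, 102, 215 and 242 TPM in wild type. In pA RNA edgeR called it in 0 of 12 genotypes (0 at an unadjusted p under 0.05, 0 by DESeq2). In wild type rcd1 was 0.555-fold in replicates 1 and 2 relative to replicates 3 and 4, opposite to the NOT genes. Its nascent RNA was 52.3 and 101 TPM in caf1*ccr4* cells, against 101 and 142 TPM in wild type, and the higher mutant library reached the lower wild-type library. The gene fell by 0.80 (SE 0.23, edgeR adjusted p = 0.0393). Without caf1*ccr4* replicate 1 or wild-type replicate 2 the change was -0.43 and -0.46 (edgeR adjusted p = 0.558 and 0.437), and the RIP library of caf1*ccr4* replicate 1 also held the lowest mot2 level of the strains with that gene. The single ccr4Δ RIP library had 227 TPM of rcd1, the highest of all genotypes, with no replicate to test it. Occupancy at rcd1 spanned 143 TPM in caf1*ccr4* to 199 TPM in caf1Δ.

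**Figure D5:**
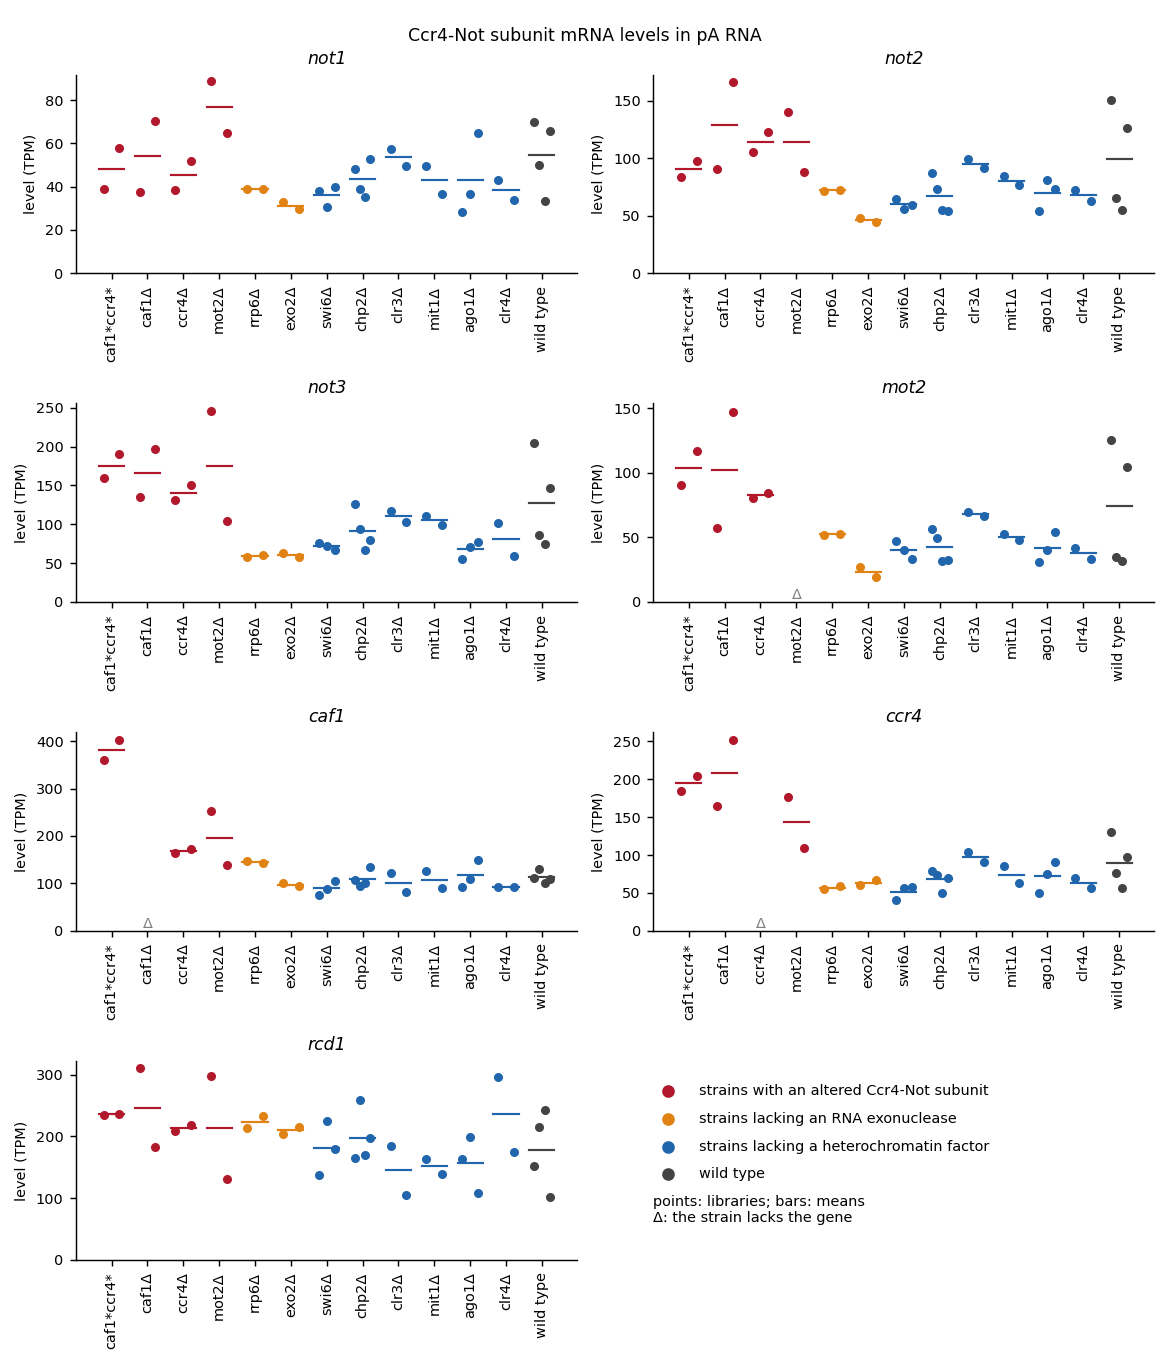
Level of each subunit gene in pA RNA (TPM) in every library, by genotype. Points are libraries, bars are genotype means, Δ marks a gene the strain lacks, and colours give the class of strain; caf1 stands out in caf1*ccr4* (361 and 402 TPM), and the 4 wild-type libraries form 2 pairs for not2, not3 and mot2.

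The 4 genes present in every strain, not1, not2, not3 and rcd1, were also compared after averaging the Ccr4-Not mutants caf1Δ, ccr4Δ, mot2Δ and caf1*ccr4* (8 pA RNA libraries), against the 6 heterochromatin mutants (16 libraries) and against wild type (4 libraries). In the Ccr4-Not mutants not3 had 104, 155 and 246 TPM (lowest, median, highest), against 55.9, 78.2 and 126 TPM in the heterochromatin mutants and 74.0, 116 and 205 TPM in wild type. The ranges of the classes overlapped. Relative to the heterochromatin mutants not3 was higher by 0.67 (SE 0.16, edgeR adjusted p = 0.000929), and this call was kept in all 39 alternatives. Some of these left out only wild-type, rrp6Δ or exo2Δ libraries, which this difference does not contain, so they tested it little. For not2 the values were 83.9, 102 and 167 TPM in the Ccr4-Not mutants, against 53.8, 73.0 and 99.0 TPM in the heterochromatin mutants, a difference of 0.37 (SE 0.15, edgeR adjusted p = 0.0333). It was lost with upper-quartile scaling (0.26, edgeR adjusted p = 0.131) and without any one of 6 libraries: replicate 1 of mot2Δ or replicate 2 of caf1*ccr4*, caf1Δ, ccr4Δ, mit1Δ or clr4Δ (0.29 to 0.36). Neither not1 (0.12) nor rcd1 (0.13) passed (edgeR adjusted p = 0.508 and 0.507). So 2 of 4 genes were called higher, where 26.8% of features were. Relative to wild type 0 of 4 were called by edgeR (0 unadjusted, 0 by DESeq2), with 21.9% of features called. That comparison turned with the wild-type libraries used: not2 changed by -0.56 with replicates 1 and 2 alone (edgeR adjusted p = 0.0372) and by 0.60 with replicates 3 and 4 alone (edgeR adjusted p = 0.0247), and not3 by -0.36 and 0.74 (edgeR adjusted p = 0.292 and 0.0206). The 2 comparisons share the Ccr4-Not mutant libraries. In the study's strain list caf1Δ, ccr4Δ and mot2Δ carry 3xFLAG-ago1 and caf1*ccr4* has another background. No heterochromatin mutant is listed with this tag. Class of mutant and strain background therefore cannot be told apart, and none of the alternatives addressed this.

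Total RNA was measured in caf1Δ, ago1Δ, the strain labelled clr4Δ and wild type. The total RNA level of ccr4 was 215 and 201 TPM in caf1Δ cells, against 105 and 105 TPM in wild type. The groups did not overlap, as was so for 37.6% of protein-coding genes higher in caf1Δ. The median gene's TPM ratio was 0.63 (log2) in caf1Δ total RNA, and the fitted change was 0.43 (SE 0.48, edgeR adjusted p = 0.999). None of 20 tests of a subunit gene passed with edgeR (0 with an unadjusted p under 0.05, 0 by DESeq2), where 0% of 18294 feature tests passed over the 3 comparisons. Replicate 1 of the mutants differed from their replicate 2: not1 had 115 to 145 TPM in replicate 1, against 30.1 to 35.7 TPM in replicate 2, and rcd1 130 to 162 TPM against 42.4 to 59.0 TPM. The wild-type libraries were replicates 2 and 3, with 47.4 and 51.5 TPM of not1.

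Tests of transcription efficiency and RNA stability as interactions of assay and genotype called no subunit gene with edgeR. For transcription efficiency 0 of 81 tests passed (5 unadjusted, 0 by DESeq2), against 1.02% of all feature tests. For RNA stability 0 of 75 passed (9 unadjusted), against 1.24% of all feature tests. DESeq2 called 2 stability changes, both of not2: -1.28 in exo2Δ (DESeq2 adjusted p = 0.0429) and -1.09 in rrp6Δ (DESeq2 adjusted p = 0.0438), where edgeR gave -1.32 and -1.08 (edgeR adjusted p = 0.126 and 0.104). For rcd1 in caf1*ccr4*, low nascent RNA with a pA RNA level near wild type gave a stability change of 1.05 (SE 0.45, edgeR adjusted p = 0.17) and an efficiency change of -0.73 (SE 0.27, edgeR adjusted p = 0.193).

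Over the 13 genotypes in pA RNA 6 of the subunit genes were mostly more alike among themselves than with rcd1. As a description, the 15 pairs without rcd1 had a median Pearson correlation of 0.81 between log2 genotype means (0.42 to 0.93), and the 6 pairs with rcd1 a median of 0.18 (-0.11 to 0.49), where all pairs of protein-coding genes had a median of 0.22. The ranges overlapped, as rcd1 with caf1 had 0.49 and not1 with caf1 0.42. Over single libraries the medians were 0.77 without rcd1 and -0.0026 with it. Both genes of a pair are read from the same libraries. The genes most like the mean profile of not1, not2, not3 and rcd1 were med14 (0.983), ugp1 (0.981), paa1 (0.977), htr12 (0.976) and prp1 (0.975) of 4751 genes. That profile leaves out mot2, caf1 and ccr4 and includes rcd1, whose correlations with the others were mostly low. Over the 32 single libraries none of these was among the 5 most similar genes.

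Genes of other mRNA decay factors were read from lists chosen for their function. Of 5 genes of poly(A) binding and the other deadenylase, 16 of decapping and 5′-3′ decay and 17 of the exosome and its cofactors, pA RNA of caf1Δ had 3 called (2 higher, 1 lower), with 13.7% of features called. In caf1*ccr4* 5 were called (all higher, 17.5% of features called), in ccr4Δ 2 (1 higher, 1 lower, 3.72%) and in mot2Δ 1 (higher, 4.96%). The decapping activator ste13, a DEAD-box helicase, had 195 and 261 TPM in caf1Δ cells, against 342, 305, 287 and 321 TPM in wild type, and 182 and 193 TPM in ccr4Δ cells, with no overlap in either case. It fell by 0.86 in both (SE 0.17, edgeR adjusted p = 0.00204 in caf1Δ and 0.00555 in ccr4Δ). The exosome subunit gene rrp40 rose in caf1Δ (0.70), ccr4Δ (0.73) and caf1*ccr4* (0.79; edgeR adjusted p = 0.0191, 0.0373 and 0.00818), and the Ski complex helicase gene ski2 in caf1Δ (0.79) and caf1*ccr4* (0.86; edgeR adjusted p = 0.0445 and 0.0278). The decapping enhancer gene pdc1 rose by 0.63 in mot2Δ and 0.60 in caf1*ccr4* (edgeR adjusted p = 0.00776 and 0.00474). Every one of these calls was lost without at least 1 mutant library (edgeR adjusted p of 0.0587 or more), for pdc1 in mot2Δ without replicate 1 (0.36, edgeR adjusted p = 0.355). None of these calls was kept when each mutant was fitted with wild type alone. Median log2 changes of the 3 lists lay between -0.26 and 0.26 in the 4 mutants.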

How the data were processed

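RNA-seq, Pol II RIP-seq and Pol II ChIP-seq libraries were analysed from the counts per feature that the authors deposited, which were not normalized. Per the study's methods and notes, reads were aligned with STAR (2.7.3a) to the PomBase genome, ribosomal reads were removed, and reads with 1 location, or in heterochromatic regions with a limited number of them, were counted with an extension of HTSeq, by strand for RNA and without strand for ChIP. All 7 subunit genes have antisense transcripts in the annotation, so ChIP counts of overlapping genes cannot be told apart.

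The tests took features that reached 10 counts in 2 or more libraries, with edgeR 4.0.16 (TMM scaling, quasi-likelihood test, Benjamini-Hochberg adjustment over all features, threshold 0.05; R 4.3.3), with all genotypes of an assay in 1 fit. DESeq2 1.42.0 was an alternative. Genotypes with 1 library (ccr4Δ in RIP and ChIP, caf1Δdcr1Δ in RIP) have values and no test. TPM used the transcript lengths in the files, and percentiles are among protein-coding genes. For transcription efficiency and RNA stability the interaction term between assay and genotype was tested. The assays of a genotype did not always come from the same strains. Wild-type RIP came from strain 63 alone, and wild-type pA RNA and ChIP from strains 63 and 65. The median depth was 13433806 counts in pA RNA, 1869604 in RIP and 6046431 in ChIP, so counting error is largest in RIP. Replicate pairs had Spearman correlations of 0.888 or more in pA RNA, 0.849 in RIP, 0.723 in ChIP and 0.740 in total RNA. Replicate 3 of mit1Δ and of rrp6Δ in ChIP was left out, by a rule for groups of 3 or more libraries, as its Spearman correlation with every other replicate was under 0.8. Groups of 2 were kept, also where their pair was under 0.8 (total RNA of caf1Δ, clr4Δ and wild type), as was replicate 3 of chp2Δ, which reached 0.812 with replicate 1, and 9 H3K9me2 samples were not used.

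All 7 subunit genes are named. Of the decay lists, at most the 3 called genes with the largest change in each Ccr4-Not mutant are named, and of similar patterns the 5 genes with the highest Pearson correlation with the mean log2(TPM + 1) profile of not1, not2, not3 and rcd1, among genes of at least 10 TPM. Members and lists were chosen with earlier results of these data known. ost5 and snR90 were named after their values were seen. Alternatives were another scaling, no filter on low counts, DESeq2, a replicate block, fewer genotypes in the fit, 1 wild-type strain, input as background and each library left out. The choice of wild-type replicates and the omission of replicate 3 of chp2Δ from ChIP, with caf1Δago1Δ not counted, were added after seeing the data. In total RNA, same-numbered libraries deviated together (9 pairs, correlations 0.24 to 0.86), where no feature was called with or without a block, so the block could not be read there. Allele codons were read from RefSeq ASM294v3, matched by systematic name (6863 of 7021 features). The fits were tested on simulated data.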

Additional observations from a re-analysis of the deposited data

Results flagged for a closer look

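In pA RNA 2 subunit genes differed between classes of mutants by a test of the difference itself. The level of not3 was higher by 0.67 (log2) in the 4 Ccr4-Not mutants than in the 6 heterochromatin mutants (edgeR adjusted p = 0.000929), and that of not2 by 0.37 (edgeR adjusted p = 0.0333). These were 2 of 4 genes tested, where 26.8% of features were called higher. The not2 call was lost with upper-quartile scaling and when certain single libraries were left out. Strain background also differs between the classes and cannot be told apart from the mutations. Of 27 groups of 4 or more libraries tested for a single library far from the rest, 0 were flagged. This rule cannot flag a split into 2 pairs, such as that of the wild-type libraries in pA RNA. The groups covered only wild type and chp2Δ in pA RNA, and chp2Δ and mot2Δ in RIP.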

How the results depend on the processing

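Over 40 results for single genes under 718 alternatives, 571 kept their direction and side of the threshold, 130 were no longer called, 2 became called and 15 turned direction. The number of subunit calls in pA RNA was 13, and 31 with wild-type replicates 1 and 2 alone, 11 with replicates 3 and 4 alone, and 1 with only wild type and 1 mutant in the fit. The last setting gave 0 calls in RIP. Shares of all features called under these settings are not given here. In ChIP there were 8 calls relative to input, in a fit without caf1Δago1Δ, which had no input library. The main fit had 2 calls outside caf1Δago1Δ, both in caf1*ccr4*. Without replicate 3 of chp2Δ there were also 2, where the caf1Δago1Δ comparison was not counted though its libraries stayed in the fit. DESeq2 gave 2 calls of RNA stability. With 1 library left out in turn, calls numbered 7 to 25 in pA RNA (7 without wild-type replicate 1, 25 without replicate 4), 2 to 6 in RIP, 3 to 6 in ChIP, 0 to 2 for transcription efficiency, 0 to 2 for RNA stability, 0 in total RNA and 1 to 2 for the averaged mutants. The averaged mutants had 1 call with upper-quartile scaling and 4 with wild-type replicates 3 and 4 alone.

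The 15 changes of direction were in the averaged Ccr4-Not mutants over wild type. For not3 the change was -0.0055 with upper-quartile scaling, -0.36 with wild-type replicates 1 and 2 alone and -0.094 to 0.43 with 1 library left out. For rcd1 it was -0.011 with upper-quartile scaling, -0.14 with strain 63 alone, -0.30 with wild-type replicates 3 and 4 alone, and -0.14 to 0.28 with 1 library left out. With wild-type replicates 3 and 4 alone not1 was 0.12 and not2 0.60, and not2 was -0.29 to 0.20 with 1 library left out. The cause was not tested.

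With the replicate number as a block, the averaged mutants had 1 call in place of 2 (not3 over wild type was -0.080), and not2 over the heterochromatin mutants was 0.28 (edgeR adjusted p = 0.0683). In pA RNA 13 were called with the block, of which 2 were gained (not2 in swi6Δ, mot2 in rrp6Δ), and 2 were lost (not1 in rrp6Δ and ccr4 in caf1Δ, edgeR adjusted p = 0.0604 and 0.0514). RIP and ChIP lost and gained 0 of 5 each. The 0 calls in total RNA, with or without the block, say nothing about stability. In pA RNA, RIP and ChIP same-numbered libraries had median correlations of 0.02, 0.01 and 0.04. The correlations ran from -0.58 to 0.76, -0.75 to 0.76 and -0.48 to 0.74, with 39.9%, 30.1% and 41.9% of pairs over 0.1. Some same-numbered libraries thus deviated together and others did not, so the number does not mark 1 batch throughout. Upper-quartile scaling moved the median of protein-coding genes by up to 0.22 in ChIP (in caf1Δago1Δ) and 0.12 in pA RNA. It moved that median by up to 0.27 for RNA stability and 0.21 for transcription efficiency, and DESeq2 by up to 0.13 for RNA stability. The RIP depth, at 319815 counts in the smallest library, limits calls of low genes.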
